A study of Homo sapiens with 9 samples.

Results

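METTL3 is the catalytic subunit of the heterodimer that writes N6-methyladenosine (m6A) into mRNA, and METTL14 is the partner that holds the RNA and without which the pair is not active. WTAP, an adaptor, anchors the pair in the nucleus. Trimethylation of lysine 4 of histone H3 (H3K4me3) marks the starts of active genes and is written by COMPASS complexes built around the SETD1 and KMT2 methyltransferases, while enzymes of the KDM5 family remove it. In erythroid cells the mark lies on the promoters of genes for heme synthesis, red cell membrane proteins and erythroid transcription factors.

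The comparison described here was between METTL3-KO and METTL14-KO cells, with 2 H3K4me3 CUT&RUN libraries in each group, out of 9 libraries of the series. The cells were HEL, a human erythroleukemia line, grown in RPMI with 10% FBS, and all 9 libraries came from this line. Both knockouts were made with CRISPR and lentiviral guides, and the remaining libraries were 3 of NTC cells, which carried a non-targeting guide, and 2 of WTAP-KO cells. CUT&RUN sequences the fragments that an antibody-tethered nuclease cuts from marked nucleosomes. As far as the methods state, knockout cells were pools carrying guides and not clones, and the guides used for these libraries are not given in the sources used here. No label says that the replicates were separate cultures, so p-values measure at most the spread between these libraries, which may be technical. In limma this spread is shared among regions or genes of like signal, so an SE need not follow a region's own replicates. In bulk cells, fewer cells with the mark and less mark per cell cannot be told apart.

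The 27029 peaks of the 4 lists were merged into 11338 regions wherever peaks shared at least 1 bp. Merging the peaks of all 9 lists the same way gave 30404 regions. A protein-coding gene counted as marked if one of its annotated starts had a peak at a distance of at most 1 kb. No list held a peak narrower than 150 or wider than 2000 bp, so that a region without a listed peak need not be without the mark. All peak positions are on hg19.

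The CpG content of regions differed between classes, and 4 of the regions described here show its range. For each, 200 bases are printed 5′ to 3′ on the plus strand, from the exon-free window nearest to the middle of the region, with each CpG in capitals. GYPE and TRA2B had peaks in both METTL3-KO libraries and in neither METTL14-KO library, CAAP1 had the reverse, and the ALG9 region had a peak in all 4 libraries with more signal in METTL14-KO.
GYPE, within 1 kb of its start, chr4:144825782-144825981: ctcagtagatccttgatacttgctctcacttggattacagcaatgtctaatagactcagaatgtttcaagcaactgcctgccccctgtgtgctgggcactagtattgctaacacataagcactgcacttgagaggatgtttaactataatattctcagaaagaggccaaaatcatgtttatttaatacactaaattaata
TRA2B, within 1 kb of its start, chr3:185655209-185655408: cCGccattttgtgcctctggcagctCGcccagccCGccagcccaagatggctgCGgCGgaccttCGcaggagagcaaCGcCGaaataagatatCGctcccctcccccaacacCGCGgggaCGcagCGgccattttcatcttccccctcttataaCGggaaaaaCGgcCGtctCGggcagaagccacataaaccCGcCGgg
CAAP1, within 1 kb of its start, chr9:26892057-26892256: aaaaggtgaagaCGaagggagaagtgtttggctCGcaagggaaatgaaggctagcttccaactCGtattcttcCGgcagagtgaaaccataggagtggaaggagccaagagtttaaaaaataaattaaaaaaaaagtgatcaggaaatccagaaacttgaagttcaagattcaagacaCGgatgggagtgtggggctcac
ALG9, within 1 kb of its start, chr11:111742306-111742505: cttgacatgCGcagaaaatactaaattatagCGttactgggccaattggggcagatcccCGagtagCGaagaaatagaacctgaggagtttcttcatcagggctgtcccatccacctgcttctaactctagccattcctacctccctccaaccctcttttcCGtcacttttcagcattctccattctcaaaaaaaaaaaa
The GYPE stretch held 0 CpG and the TRA2B stretch 19. The CAAP1 and ALG9 stretches held 5 each. These windows were set by the exons and need not be the middle of the region (that of TRA2B lay at its edge), so their counts are not set against the following ones. The middle 200 bases of all 11338 regions held a median of 10 CpG, with at least 10 in 50.4% of regions. Regions found in METTL3-KO only had a median of 9 and those found in METTL14-KO only a median of 6, against 11 for regions called in all 4 libraries. The order depended on the bases counted. In the 200 bases upstream of gene starts, the median was 19 CpG for genes marked in METTL3-KO only. It was 14 for genes marked in METTL14-KO only, 17 for genes marked in all 4 libraries and 15 for all protein-coding genes.

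METTL3-KO cells had more and wider H3K4me3 peaks than METTL14-KO cells. The METTL3-KO lists held 9369 and 9205 peaks and the METTL14-KO lists held 5286 and 3169. Both METTL3-KO libraries were above both METTL14-KO libraries, and the METTL14-KO libraries differed from each other more than the METTL3-KO libraries did. The means were 9287 ± 116 and 4227.5 ± 1497 (SD, n = 2 in each group), so that METTL3-KO had 220% of the METTL14-KO number. The exact permutation test (two-sided, 6 arrangements) gave p = 0.333, the smallest value that 2 against 2 libraries allow. The NTC lists held 21832 ± 109 peaks (SD, n = 3) and the WTAP-KO lists 3416.5 ± 363 (SD, n = 2).

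Covered sequence differed more than peak number. It was 5.43 and 5.00 Mb in METTL3-KO and 2.40 and 1.43 Mb in METTL14-KO, a ratio of 273% with no overlap of the groups (exact permutation p = 0.333, the smallest possible). Median peak width was 454 and 424 bp in METTL3-KO and 345 and 349 bp in METTL14-KO, again without overlap (ratio 127%, exact permutation p = 0.333). Median peak signal did not separate the groups. It was 1446 and 852 in METTL3-KO against 1044 and 922 in METTL14-KO, so that 1 METTL3-KO library was the highest and the other the lowest (exact permutation p = 1). The signal is a coverage value that the authors scaled to a yeast spike-in.

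Signal in each list came in whole steps, of 0.461 and 1.07 in METTL3-KO and of 0.440 and 0.416 in METTL14-KO. A step was read as the value of 1 fragment in its library after scaling. Division by the step therefore also takes out the scaling of that library to the spike-in. With the same lowest number of steps required of every peak in the 4 lists, METTL3-KO still had 218% of the METTL14-KO peaks. Keeping the peaks from the median signal of the 4 lists upwards gave 237%.

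**Figure D1:**
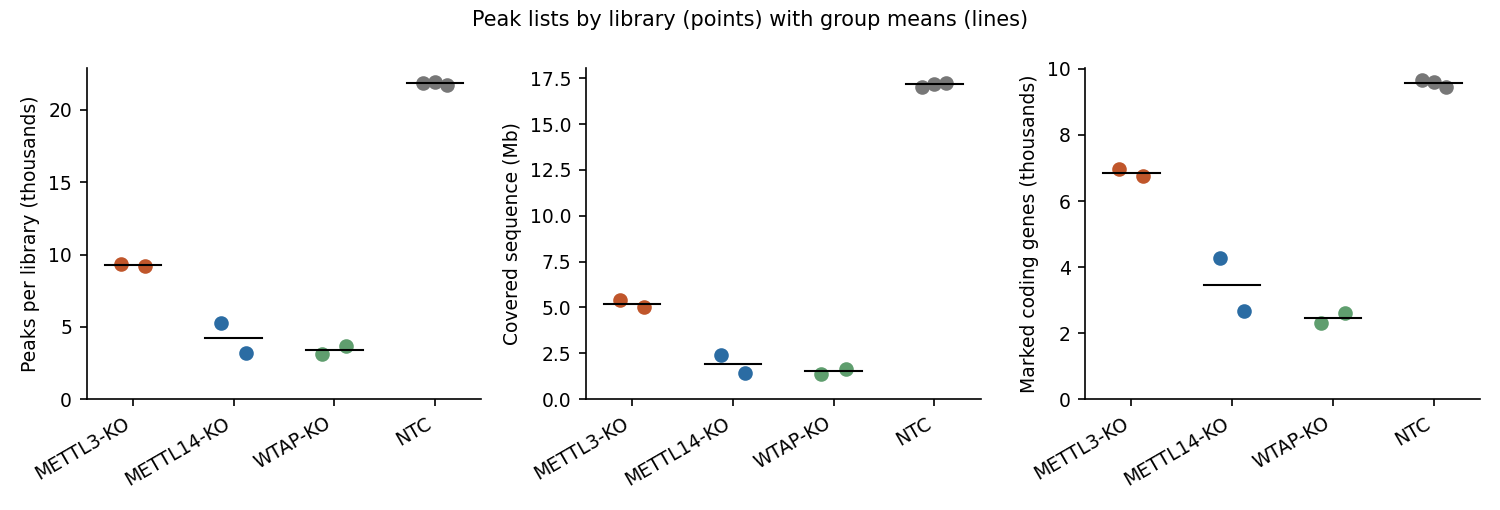
Peaks per library (in units of 1000), covered sequence in Mb and marked protein-coding genes (in units of 1000), with a point for each library and a line at each group mean. The METTL3-KO libraries (9369 and 9205 peaks) lie above the METTL14-KO libraries (5286 and 3169) and below the 3 NTC libraries in each panel.

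The METTL14-KO peak set was largely contained in the METTL3-KO set, and the reverse did not hold. Of 2643 regions called in both METTL14-KO libraries, 2523 (95.5%) had a METTL3-KO peak in at least 1 library and 120 (4.54%) had none. The last share was 7.26% without METTL3-KO replicate 1 and 10.1% without replicate 2. Of 6904 regions that both METTL3-KO libraries shared, 4188 (60.7%) had a METTL14-KO peak and 2716 (39.3%) had none. These 2716 regions are called METTL3-KO-only regions and the 120 METTL14-KO-only regions. The 2716 were 24.0% of all 11338 regions and the 120 were 1.06%. A further 2304 regions (20.3%) were called in all 4 libraries. The remaining regions were called in 1 METTL3-KO library alone (3478), in 1 METTL14-KO library alone (197), or in both groups but not in every library (2523).

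The share of the union of regions that 2 libraries had in common was 62.6% for the METTL3-KO pair and 51.4% for the METTL14-KO pair. Between the groups it ranged from 27.3% to 46.3%. The METTL14-KO replicates were themselves nested, since 91.1% of the 2900 regions of replicate 2 lay in replicate 1 while 54.1% of the 4887 regions of replicate 1 lay in replicate 2. The share of METTL3-KO regions without a METTL14-KO peak therefore depended on the library, and was 41.6% with METTL14-KO replicate 1 alone and 64.4% with replicate 2 alone.

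At the 2304 regions called in all 4 libraries, METTL3-KO had the higher signal almost everywhere. The mean log2 signal was 12.28 and 11.45 in METTL3-KO and 10.88 and 9.94 in METTL14-KO. Both METTL3-KO libraries were above both METTL14-KO libraries, and the difference of the means was 1.46 on the log2 scale, or 2.75-fold (exact permutation p = 0.333, the smallest possible). The mean signal was higher in METTL3-KO at 2283 of these regions (99.1%). At 1709 (74.2%) both METTL3-KO libraries were above both METTL14-KO libraries, and at 3 (0.130%) the reverse was true. Dividing each library by its step brought METTL3-KO replicate 2 down among the METTL14-KO libraries, with means of 13.40 and 11.36 against 12.07 and 11.20. The difference was then 0.75 (exact permutation p = 0.667), and both METTL3-KO libraries were higher at 353 regions (15.3%).

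**Figure D2:**
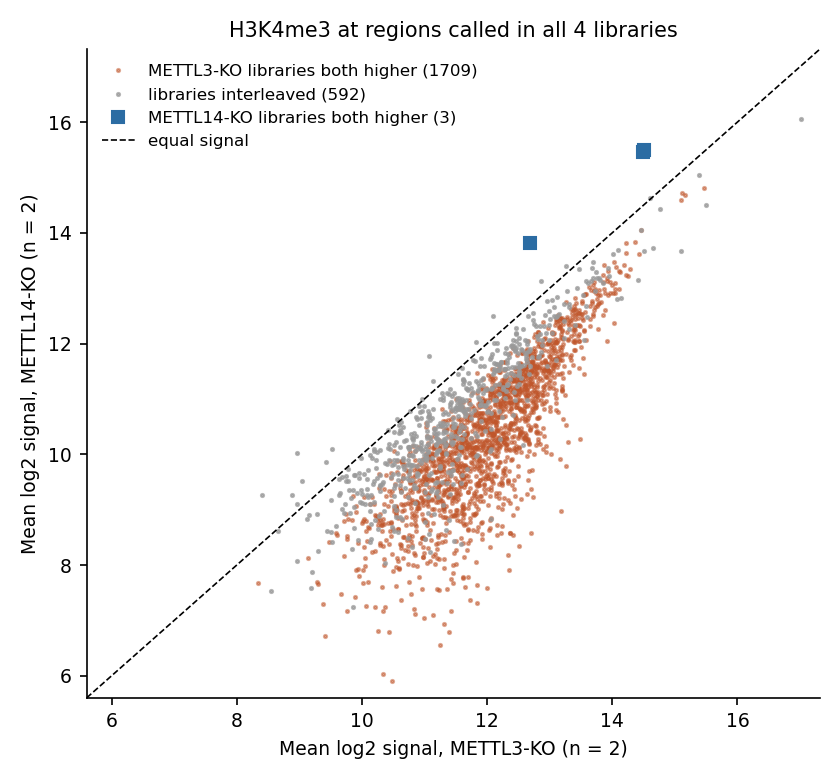
Mean log2 signal of the 2 METTL14-KO libraries against that of the 2 METTL3-KO libraries at the 2304 regions called in all 4 libraries, 1 point per region, with a dashed line at equal signal. Most points lie below the line, 1709 of them with both METTL3-KO libraries higher, and the 3 squares with both METTL14-KO libraries higher lie above it.

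Regions were then tested one by one. With limma on log2(signal + 30.4), where 30.4 was the smallest region signal, 7663 regions called in at least 2 of the 4 libraries were tested. Signal was higher in METTL3-KO at 2588 regions (33.8%) and in METTL14-KO at 119 (1.55%) at a Benjamini-Hochberg adjusted p below 0.05. These calls largely restated peak presence: 2508 of the 2588 were METTL3-KO-only regions and all 119 were METTL14-KO-only regions. Of the 2588, 80 had a peak in both groups. The 2508 and the 119 regions entered the test through the group where they had peaks and were at 0 in the other. For these the filter and the value added before taking logs fixed the outcome, and their calls are a description. Leaving out METTL3-KO replicate 1 left 32 calls higher in METTL3-KO and 67 higher in METTL14-KO, and leaving out replicate 2 left 17 and 54, since a region of 1 METTL3-KO library alone no longer entered. Leaving out METTL14-KO replicate 1 gave 4774 calls. Tested alone, the 2304 regions called in all 4 libraries gave 107 regions higher in METTL3-KO (4.64%) and 0 higher in METTL14-KO, with 747 regions at an unadjusted p below 0.05. After division by the step the same limma test called 0 in either direction, with 15 regions at an unadjusted p below 0.05.

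The METTL3-KO-only region with the most signal was at GYPE, a glycophorin gene of the red cell surface (chr4:144825059-144826706). Its signal was 9915 and 3439.8 in METTL3-KO, and no peak was listed in METTL14-KO or NTC. WTAP-KO had peaks there of 1244 and 3501. Glycophorin genes are near copies of each other, so reads may have been divided among them. The next was at TRA2B, a splicing regulator (chr3:185652575-185655411), with 8073 and 3195 in METTL3-KO. RBM39, a splicing cofactor (chr20:34328495-34330232), had 6590 and 4572. OTUD4, a deubiquitinase gene (chr4:146098900-146100874), had 7465 and 3254. SMARCA5, the ATPase of ISWI remodellers (chr4:144435468-144436690), had 7082 and 3615. All 5 were listed at 0 in both METTL14-KO libraries and in all 3 NTC libraries. They were chosen for this pattern, so no test or fold is given. RBM39 and SMARCA5 had a second region at the start with METTL14-KO peaks, so that as genes they were marked in all 4 libraries.

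Of these 5 regions, 3 lay within 1667 kb of chromosome 4, from SMARCA5 to OTUD4. That stretch held 9 regions, of which METTL3-KO replicates 1 and 2 had called 8 and 9, and METTL14-KO replicates 1 and 2 had called 1 and 2. GYPB, another glycophorin gene, had 2646 and 694 in METTL3-KO and no METTL14-KO peak. At 7 of the 9 regions neither METTL14-KO library had a peak.

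The METTL14-KO-only regions were few, strong and wide. The strongest lay in a long noncoding RNA gene with no symbol, ENSG00000291185 (chr9:14924608-14926410), with 18190 and 15110 in METTL14-KO. No peak was listed there in any of the other 7 libraries, and a neighbouring METTL14-KO-only region of 961 bp (chr9:14926613-14927573) had 6189 and 1913 with none elsewhere either. Another METTL14-KO-only region in the same gene (chr9:14961828-14961991) had 204 and 311, and NTC had peaks of 20408 to 21878 there. CAAP1, an apoptosis regulator (chr9:26891375-26893127), had 15696 and 12380.4 in METTL14-KO and 9075 and 12767 in WTAP-KO. The shared promoter of TAF11, a TFIID subunit, and ANKS1A (chr6:34855550-34857254) had 13665 and 11894. An intron of UPK2 had 13534 and 10219. A region within 1 kb of annotated starts of PSMB8 and PSMB9, both immunoproteasome subunits (chr6:32811195-32813118), had 12152 and 8858. All 5 were listed at 0 in METTL3-KO and NTC and were chosen for this pattern, so no test is given.

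Region width and peaks in the other libraries differed between these classes. Median width was 960.5 bp for METTL14-KO-only regions, 478 bp for METTL3-KO-only regions and 1017 bp for regions in all 4 libraries. Wider than 1500 bp were 30%, 0.589% and 18.1% of them. Of the 120 METTL14-KO-only regions, 119 (99.2%) had no NTC peak, and 91 had a peak in both WTAP-KO libraries (75.8%). Only 12 had neither an NTC nor a WTAP-KO peak. Of METTL3-KO-only regions, 34.8% had no NTC peak and 47.8% had one in all 3 NTC libraries, while 2.98% had a peak in both WTAP-KO libraries and 87.9% in none. Over all 11338 regions these 4 shares were 39.6%, 44.5%, 21.2% and 67.4%, so the NTC shares of METTL3-KO-only regions were near those of all regions. Of regions in all 4 libraries, 48.0% had no NTC peak and 64.0% had a peak in both WTAP-KO libraries. Whether a peak wider than the listed range lay at the METTL14-KO-only regions in the other libraries was not tested.

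**Figure D3:**
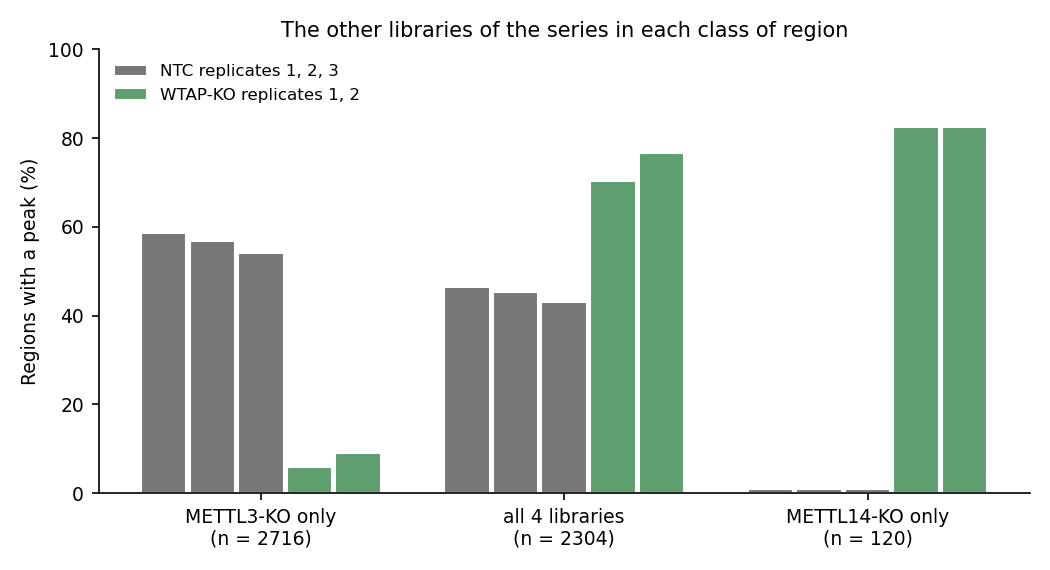
Share of regions with a peak in each NTC (grey) and WTAP-KO (green) library, in percent, for METTL3-KO-only regions, regions called in all 4 libraries and METTL14-KO-only regions. WTAP-KO peaks were found at 82.5% of METTL14-KO-only regions in each library, where NTC peaks were nearly missing, and at 5.96% and 9.09% of METTL3-KO-only regions.

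Strong regions could also be missing from 1 replicate of a group. Of 421 regions at or above a signal of 10000 in METTL3-KO replicate 1, 43 (10.2%) had no peak in replicate 2, and of 135 such regions in METTL14-KO replicate 1, 13 (9.63%) had none in replicate 2. In the other direction the shares were larger. Of 169 regions at or above a signal of 10000 in METTL3-KO replicate 2, 56 (33.1%) had no peak in METTL3-KO replicate 1, and of 62 such regions in METTL14-KO replicate 2, 19 (30.6%) had none in METTL14-KO replicate 1. At SNAPC3, a subunit of the small nuclear RNA activating complex (chr9:15422286-15424279), the signal was 49649.5 and 0 in METTL3-KO and 0 and 27154 in METTL14-KO. At TTC39B (chr9:15305467-15307499) it was 0 and 48310.5 in METTL3-KO and 0 and 33723 in METTL14-KO. These 2 genes were chosen after their values were seen.

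Among regions called in all 4 libraries, the largest differences with the groups apart were near 4.2 on the log2 scale. PAXBP1, a chromatin adaptor (chr21:34142682-34143683), had 7834 and 3450.45 in METTL3-KO and 429 and 134 in METTL14-KO. An intron of RGMB, a BMP co-receptor (chr5:98106386-98107451), had 5014 and 1183 against 190.1 and 46.2. PLEKHA8, a lipid transfer protein (chr7:30068409-30070219), had 6616 and 2047 against 320.3 and 78.6. STK11, the kinase LKB1 (chr19:1206559-1207692), had 3444 and 2089.9 against 158 and 78.2. GNAI3, an inhibitory G protein subunit (chr1:110091026-110092098), had 5099.9 and 3249.7 against 176 and 208. The lower METTL3-KO library was above the higher METTL14-KO library at each, which was a condition of the choice. In the limma fit of the 2304 regions called in all 4 libraries the 5 differences were 4.21 to 4.25 (SE 0.999 to 1.05). The 5 were chosen by these values, so no p-value is given. After division by the step limma called 0 of the 2304 regions.

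The 3 regions with both METTL14-KO libraries above both METTL3-KO libraries were neighbours on chromosome 11. ALG9, a mannosyltransferase of N-glycan assembly (chr11:111741301-111743052), had 30637 and 17585 in METTL3-KO and 49976 and 43264 in METTL14-KO. The divergent start of FDXACB1 and CFAP68 (chr11:111748953-111750741) had 27685 and 19313 against 53004 and 38188. DIXDC1, a Wnt pathway gene (chr11:111797238-111798399), had 8702 and 5019 against 17901 and 11772. Both METTL14-KO libraries were the higher at all 3, by 0.96 to 1.13 on the log2 scale, and none passed the limma test (adjusted p = 0.0747 to 0.135 over 7663 regions). The WTAP-KO signal there was 454 to 8854 and the NTC signal 8511 to 33282. From ALG9 to PTS, a stretch of 357 kb, METTL3-KO had peaks at all 11 regions and each METTL14-KO library at 10, and only these 3 had the METTL14-KO libraries both higher.

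METTL14-KO peaks were more frequent at regions of higher METTL3-KO signal. Of the 6904 regions that both METTL3-KO libraries shared, split into 10 equal bins by signal, 13.2% of the weakest bin had a METTL14-KO peak, 55.3% of bin 5 and 99.9% of the strongest. METTL14-KO replicate 1 rose from 13.0% to 99.4% and replicate 2 from 0.435% to 95.2%. The NTC signal, which took no part in defining the regions, gave a shallower slope. Of the regions also called in all 3 NTC libraries, the share with a METTL14-KO peak was 34.0% in the weakest bin and 91.5% in the strongest. The reverse comparison had another shape: of the 2643 regions of both METTL14-KO libraries, 97.0% of the weakest bin and 84.9% of the strongest had a METTL3-KO peak, with median region widths of 703 and 1631 bp.

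**Figure D4:**
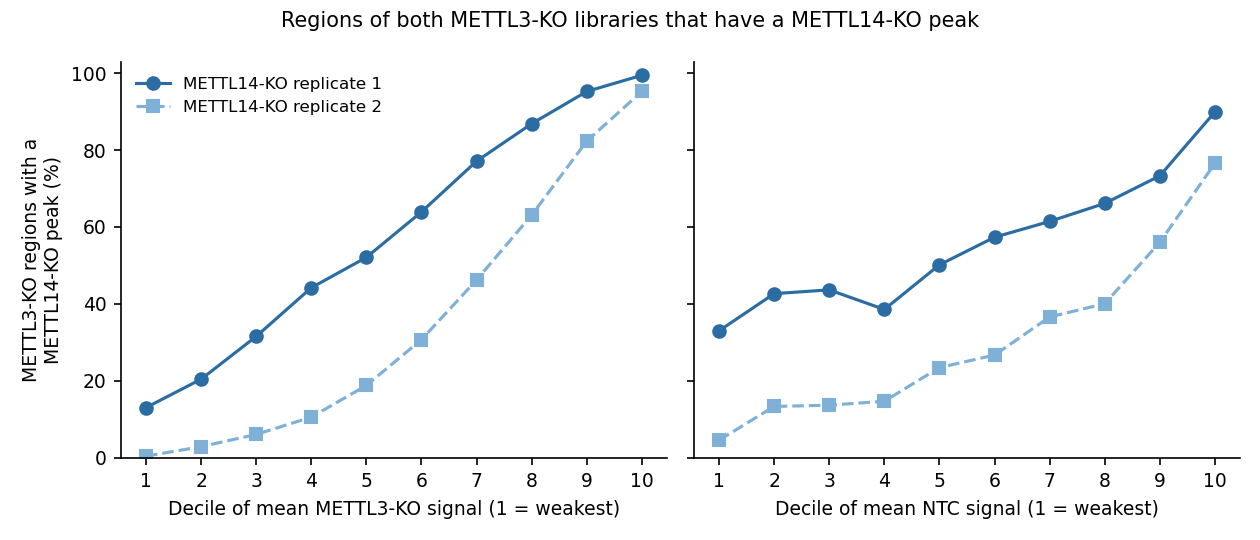
Share of METTL3-KO regions with a peak in each METTL14-KO library, in percent, by 10 bins of mean METTL3-KO signal (left, 6904 regions) and of mean NTC signal (right, those also called in all 3 NTC libraries). Both METTL14-KO libraries rise from left to right, replicate 1 from 13.0% to 99.4% on the left.

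The share also differed between chromosomes. Among the 20 chromosomes with at least 100 METTL3-KO regions, a METTL14-KO peak was found at 38.4% of regions on chromosome 7, 38.6% on 5 and 39.6% on 14. At the other end were chromosomes 15 (73.1%), 19 (73.8%), 6 (73.9%) and 21 (88.9%). Chromosome 21 was the highest in both METTL14-KO libraries, with 87.2% and 65.8%. Replicate 1 was lowest on chromosome 14 (35.2%) and replicate 2 on chromosome 7 (13.7%). METTL3-KO signal moved with this order: its median over regions was 1342 and 682 on chromosome 7 and 5460 and 3450.4 on chromosome 21. Giving each region the METTL14-KO share of its signal bin gave 46.9% for chromosome 7 and 82.4% for chromosome 21, so that the observed shares differed from it by -8.52 and 6.54 points. For chromosome 19 this difference was 13.0 points and for chromosome 5 it was -11.8 points. No test was made between chromosomes.

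**Figure D5:**
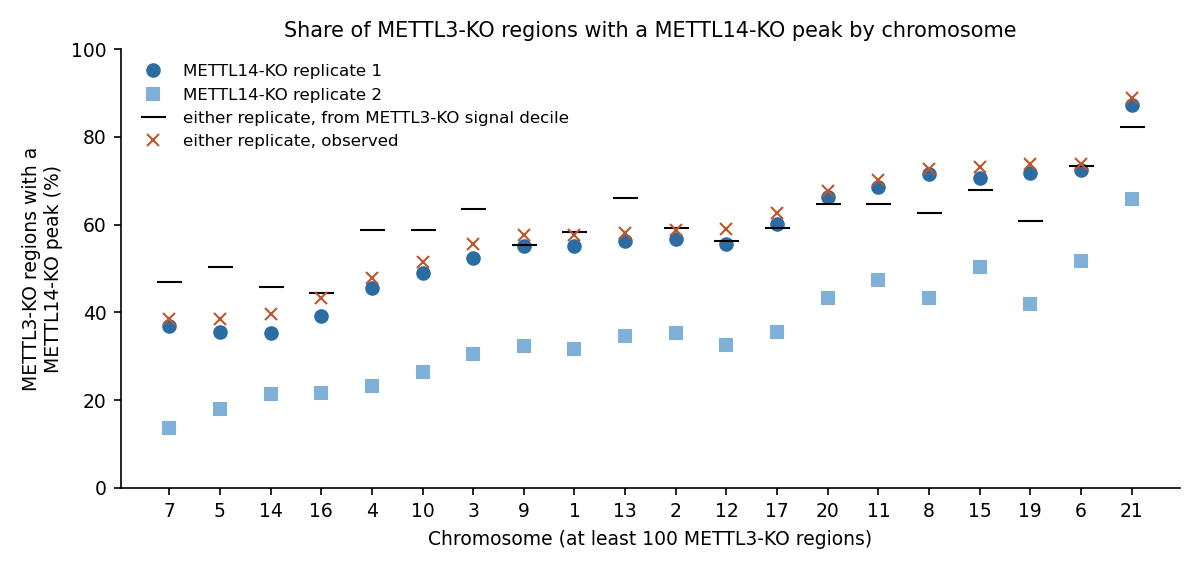
Share of METTL3-KO regions with a METTL14-KO peak, in percent, for the 20 chromosomes with at least 100 such regions, for each METTL14-KO library (circles and squares), for either library (crosses) and as given by the METTL3-KO signal bins of the regions (short lines). Both libraries are highest on chromosome 21, with 87.2% and 65.8%.

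Fewer genes were marked in METTL14-KO. Of 20149 protein-coding genes, 6976 and 6748 were marked in METTL3-KO and 4263 and 2662 in METTL14-KO, with the groups apart and a ratio of 198% (exact permutation p = 0.333, the smallest possible). Of 7792 genes marked in at least 1 of the 4 libraries, 2330 were marked in all 4. Marked in both METTL3-KO and neither METTL14-KO library were 2032 genes (26.1% of the 7792), and the reverse held for 64 (0.821%). In the limma test of summed promoter signal over 6395 genes, 2019 were higher in METTL3-KO (31.6%) and 64 in METTL14-KO (1.00%), which as for regions largely restated where peaks were listed. Without METTL3-KO replicate 1 the calls were 4 and 45, and without replicate 2 they were 12 and 43.

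The marked gene with the most signal in METTL3-KO only was IGF1R, the receptor of insulin-like growth factors, with 16926 and 10314. LASP1, an actin-binding protein, had 12444.5 and 5496, CDK12, an RNA polymerase II kinase, had 12296 and 5330, and UBL3 and UBXN2A, ubiquitin-related genes, had 11940.1 and 5127 and 11077 and 4929.5. No METTL14-KO peak lay within 1 kb of their starts, but each of the 5 genes had a merged region there that was called in all 4 libraries, with the METTL14-KO peak ending farther from the start. At IGF1R that region had 16926 and 10104 in METTL3-KO and 7229 and 6740.04 in METTL14-KO (limma difference 0.90, adjusted p = 0.141). At LASP1 it had 9772 and 4645 against 2832 and 2323, and at UBL3 11940.1 and 5007 against 3541 and 2385. With peaks within 3 kb of a start summed, none of the 5 differences passed (limma adjusted p = 0.0869 to 0.188). The marking of a gene in METTL3-KO only thus need not mean that METTL14-KO had no peak at its promoter. In METTL14-KO only, PSMB9 had 12152 and 27563, CAAP1 had 15696 and 12380.4, RAB30, a Golgi GTPase, had 16902 and 9003, and PSMG1, a proteasome assembly chaperone, had 15845 and 9531. PSMB8 shared its region with PSMB9. The further PSMB9 signal in METTL14-KO replicate 2 came from regions shared with TAP1, of 4044 and 14660.5, that were called in this library alone. Promoter peaks of CAAP1 outside its METTL14-KO-only region gave NTC 2147 to 2895. All 5 were listed at 0 in METTL3-KO.

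Of genes marked in all 4 libraries and tested alone, limma called 370 higher in METTL3-KO and 5 higher in METTL14-KO. The 5 were ATP2C1, a Golgi calcium pump, EPC1, a NuA4 subunit, the divergent pair TOMM70 and LNP1, and NFIB, a transcription factor. EPC1 had 3044 and 1236 in METTL3-KO and 8435 and 8317 in METTL14-KO (difference -2.09, SE 0.774, adjusted p = 0.0478). NFIB had 875 and 27199 in METTL3-KO and 27148 and 19427 in METTL14-KO, so that its groups overlapped. Its SE was 0.620 although its METTL3-KO libraries were far apart, since limma shares the spread among genes. The other 3 also had the METTL14-KO libraries both higher. After division by the step limma called 0 of these 2330 genes, with 26 at an unadjusted p below 0.05. These 5 genes were named after their values were seen.

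The targeted genes do not check the knockouts here, since a guide that disrupts a coding sequence need not alter the promoter mark. METTL3 had a promoter signal of 1095 and 915 in METTL3-KO and 399.5 and 0 in METTL14-KO (limma adjusted p = 0.19), against 6578 to 10067 in NTC. METTL14 had 965 and 349 in METTL3-KO and 0 in both METTL14-KO libraries, against 3338 to 5174 in NTC. WTAP had 5749 and 673 in METTL3-KO and 213 and 0 in METTL14-KO (limma adjusted p = 0.131). The WTAP regions also lay within 1 kb of SOD2 starts. Of the 8 genes of the writer complex, 7 were marked in at least 1 of the 4 libraries, 2 in METTL3-KO only and 1 in all 4. The last was VIRMA, the scaffold subunit, with 7439 and 3805 against 3779 and 2149. RBM15, which recruits the writer to RNA, was marked in METTL3-KO only, with 1039 and 450. Among 12 erasers and readers, 8 were marked in at least 1 of the 4 libraries and 3 of these in METTL3-KO only (37.5%, against 26.1% of all marked genes): YTHDF2, a cytoplasmic reader (2969.6 and 2137), the eraser ALKBH5 (419.6 and 1097) and YTHDC1, a nuclear reader (609 and 467).

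Genes of the H3K4 methylation machinery were marked in METTL3-KO only at about the share of all genes. Of 17 methyltransferase and COMPASS genes, 12 were marked in at least 1 of the 4 libraries, 3 in METTL3-KO only (25%, against 26.1% of all marked genes) and 5 in all 4. SETD1B had 2372 and 1422 in METTL3-KO and 1753 and 645 in METTL14-KO, which overlapped (limma adjusted p = 0.492). This signal came from a region (chr12:122240365-122241229) that also lay within 1 kb of a RHOF start and had no NTC peak. SETD1A had no peak in any of the 4 libraries and KMT2D had 1, of 262 in METTL3-KO replicate 2, while both were marked in all 3 NTC libraries. KMT2A had 21473 and 31730 against 24670 and 16386, again with overlap. RBBP5, a core subunit, had 424 and 687 in METTL3-KO only, CXXC1, the CpG-binding subunit, had 796 and 262, and NCOA6 had 4085 and 816. Of 7 genes in the H3K4 demethylase list, which also held the CoREST gene RCOR1, 3 were marked in at least 1 of the 4 libraries. KDM5B was marked in METTL3-KO only, with 2386 and 994, and KDM5A in all 4, with 6043 and 2562 against 485 and 503.

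The erythroid lists were short, and no test compared them with each other or with other genes. Over all marked genes, 26.1% were marked in METTL3-KO only and 29.9% in all 4 libraries. Of 16 heme synthesis and iron genes, 8 were marked in at least 1 of the 4 libraries, 0 in METTL3-KO only and 4 in all 4, and none of 6 tested passed. UROS, a heme synthesis enzyme, had 2008 and 1292 in METTL3-KO and 429 and 306 in METTL14-KO, with the groups apart (limma difference 2.06, SE 0.892, adjusted p = 0.159). The UROS region also lay within 1 kb of a BCCIP start. Of 21 red cell membrane and blood group genes, 11 were marked in at least 1, 6 in METTL3-KO only (54.5%) and 2 in all 4. Among the 6 were GYPE, GYPB, ADD1, SPTB and BSG. ANK1, the membrane anchor, had 12838 and 6953 against 6298 and 2972. RHAG had a single peak, of 7828 in METTL14-KO replicate 1.

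Of 15 erythroid transcription factor genes, 11 were marked in at least 1 library. Of these, 3 were in METTL3-KO only (27.3%, against 26.1% of all marked genes) and 1, RUNX1, in all 4 (9.09%, against 29.9%). GATA2, a progenitor factor, had 1589 and 1341 in METTL3-KO only, TAL1 had 496 and 266, and GFI1B had 3041 and 166. GATA1, KLF1 and EPOR had no peak in any of the 4 libraries and were marked in all 3 NTC libraries. HEMGN had no listed peak in any of the 9. Of 18 EPO receptor and JAK-STAT genes, 2 of 10 marked genes (20%, against 26.1% of all) were in METTL3-KO only. They were the feedback inhibitors CISH (1600.2 and 1903) and SOCS2 (2204 and 815). PIM1, a STAT5 target kinase, had 8883 and 7149.7 against 3590.3 and 2768. Of 18 megakaryocyte and myeloid genes, 6 were marked and none in METTL3-KO only, against 26.1% of all marked genes. FLI1 had 17053 and 11335 against 12276.5 and 9603, and MEIS1 had 2549 and 0 against 12239 and 9617.

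Among gene sets of erythroid stages that the study took from other expression data, the share marked in METTL3-KO only ranged from 18.8% to 39.0% of marked members, around the 26.1% of all genes. It was highest for genes that rise from CFU-E to proerythroblast (16 of 41) and lowest for genes that fall there (13 of 69).

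The share of METTL3-KO-only genes in housekeeping lists was 14.7% to 28.6%, against 26.1% of all marked genes, with no test between them. METTL3-KO-only genes were 10 of 68 marked mitochondrial ribosomal protein genes (14.7%), 55 of 306 zinc finger genes (18.0%), 16 of 70 cytosolic ribosomal protein genes (22.9%), 14 of 61 respiratory chain genes (23.0%), 8 of 37 splicing factor genes (21.6%), 10 of 48 histone genes (20.8%) and 6 of 25 DNA replication genes (24.0%). Translation initiation factors had 8 of 28 (28.6%). The proteasome list had 5 of 32 (15.6%) and also held 3 of the 64 genes marked in METTL14-KO only, PSMB1 (7940 and 6597), PSMB8 and PSMB9. PSMB8 and PSMB9 shared a region and are not separate observations. RPS25, a small subunit protein, had 10110 and 7331 in METTL14-KO only, and the zinc finger genes ZNF345 and ZNF184 had 10353 and 8329 and 7119 and 3988. PSMB1, RPS25, ZNF345 and ZNF184 each had peaks in both WTAP-KO libraries and in no NTC library.

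Markers of the HEL lineage were found in 8 and 6 of 14 genes in METTL3-KO and 2 and 1 in METTL14-KO, against 9 to 11 in NTC. Their summed promoter signal was 14381 and 4411 in METTL3-KO, 2707 and 348 in METTL14-KO and 55908 to 67297 in NTC. GATA1, KLF1, EPOR and GYPC were at 0 in all 4 knockout libraries and marked in all 3 NTC libraries, and JAK2 was at 0 in all of these 7. Of 8 lymphoid, 5 epithelial, 5 fibroblast and 4 monocytic marker genes, none had a peak in the 4 libraries. In NTC, 3 lymphoid, 2 to 3 fibroblast and 1 monocytic marker genes had a peak in each library.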

How the data were processed

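H3K4me3 CUT&RUN was measured in HEL cells, and 1 peak list per library was analysed. The authors aligned reads to hg19, with sacCer3 for the yeast spike-in, and the submitters' notes name Bowtie and Picard without a version. The deposited signal of each peak is a coverage value scaled to the spike-in. Lists hold peaks of 150 to 2000 bp, read total was not used here, and starts were read as counted from 0. The depth of a library thus entered only through the step, read as the value of 1 fragment, and the number of libraries limits precision.

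Peaks of the 4 lists sharing at least 1 bp were merged, and the signals of a region's peaks in a library were summed. Starts came from GENCODE 44 lifted to GRCh37, with a window of 1 kb. Differences were tested with limma 3.58.1 in R 4.3.3 on log2(signal + 30.4), over regions or genes with peaks in at least 2 of the 4 libraries, with Benjamini-Hochberg adjustment and a threshold of 0.05. This step was tested on simulated data that had a common spread and no peaks missing from a list. The simulation therefore does not cover calls at regions or genes listed at 0 in a group. Values per library were compared with exact permutation tests, two-sided. Python 3.11.15, pandas 2.3.3, numpy 2.4.6, scipy 1.17.1, matplotlib 3.10.9, samtools 1.23.1 and pysam 0.24.0 were used. The labels give no batch.

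The regions, lists and tests were chosen with earlier results of these data known. Named were the 5 strongest regions and the 5 strongest genes of each one-group class, the 5 largest and up to 5 smallest differences among regions called in all 4 libraries with the groups apart, 11 genes set by name, and up to 4 members of each list. Genes outside this rule were named after their values were seen. Alternatives covered peak floors, overlap, pseudocount, filter, scaling, window, the replicate block and leaving out each library. Some items are not reported here.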

Additional observations from a re-analysis of the deposited data

Results flagged for a closer look

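The signal of METTL3-KO and METTL14-KO differed at 2707 of 7663 regions in the limma test of the group difference (adjusted p below 0.05), 2588 higher in METTL3-KO and 119 higher in METTL14-KO. All 119 and 2508 of the 2588 had no listed peak in the other group.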

How the results depend on the processing

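Of 109 alternatives run on 12 comparison results, 82 were counted as the same, 26 as moved and 1 as reversed. A result counted as the same could still change in size. The log2 difference at regions called in all 4 libraries went from 1.46 to 0.75 after division by the step and counted as the same. So did limma region calls of 2011 with a pseudocount 10 times as large and 3366 with the replicate block, against 2707. The reversed value was median peak signal, 86.7% without METTL3-KO replicate 1 (86.7% to 147% with each library left out). METTL3-KO regions without a METTL14-KO peak were 41.6% to 64.4% with a library left out and 56.2% when called in at least 1 library. METTL14-KO regions without a METTL3-KO peak were 5.55% to 10.1%, 6.16% in at least 1 library and 2.55% with peaks within 1 kb merged. With a library left out, genes marked in METTL3-KO only numbered 2155 to 3594 and in METTL14-KO only 76 to 146. limma calls were then 71 to 4774 regions and 49 to 4215 genes. Without METTL3-KO replicate 1 or 2 the filter of at least 2 libraries dropped regions by construction. Restricted to all 4 libraries, calls were 107 regions and 375 genes. With division by the step as well, an alternative chosen after seeing the data, limma called 0 regions and 0 genes (15 and 26 at an unadjusted p below 0.05). The promoter difference of SETD1B was -0.66 after centring (limma adjusted p = 0.351). Of 364 alternatives for 33 named regions and genes, 322 kept direction and call, 14 lost the call, 27 gained it and 1 reversed; the cause was not tested.

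No label says whether same-numbered libraries were paired. Deviations of same-numbered libraries correlated with r = -0.04 over 2304 regions, a value that cannot show a shift common to all regions. In mean log2 signal replicate 1 was above replicate 2 in METTL3-KO (12.28 and 11.45) and in METTL14-KO (10.88 and 9.94). With same-numbered libraries as a block, limma called 3503 genes and 3366 regions. With the METTL14-KO numbers swapped it called 2160 genes and 2939 regions. Neither fit shows whether the replicates were paired. For the shares no block was fitted, and same-numbered single libraries were compared in pairs. Their mean was 61.5% for METTL3-KO regions without a METTL14-KO peak and 10.8% for the reverse. For METTL3-KO regions, same-numbered pairs gave 52.7% and 70.3%, and differently numbered pairs 71.7% and 50.8%. Each pair used 1 library per group, unlike the 39.3% given for regions of both METTL3-KO libraries.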
